A study of Mus musculus with 4 samples.

Results

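The genes described here are 10 genes of the circadian clock, chosen by name: the activator Clock, the repressors Per1, Per2, Per3, Cry1 and Cry2, the nuclear receptors Nr1d1 and Nr1d2, and the output factors Dbp and Tef. They were found on the arrays through the accession of each probe and are read by 19 of 41170 probes, which makes 10 of 32300 genes or transcripts. Expression was measured in 4 pools of RNA from female ICR mice aged 6 months: Nrf2-/- lung tumors, Nrf2+/+ lung tumors, Nrf2-/- non-tumor lung and Nrf2+/+ non-tumor lung. All mice, of both genotypes, had received urethane, a carcinogen known to cause adenomas of the mouse lung, at 1 g/kg into the peritoneum 16 weeks earlier. Nrf2 (gene symbol Nfe2l2) encodes a transcription factor that drives antioxidant and detoxification genes, and Nrf2-/- mice lack it. Tumors measured 1.0 to 1.5 mm across and were freed of the tissue around them under a microscope. Each pool held RNA of 8 mice and was read on 1 array, so there are no replicates, and a difference between 2 arrays carries no p-value and describes those 2 pools. The non-tumor lung also came from urethane-treated mice, so no pool stands for untreated lung. The hour at which tissue was collected, which matters for rhythmic genes, is not stated in the labels.

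The clock is a loop of transcription and repression that runs in nearly every cell of the mouse. CLOCK and its partner BMAL1 (gene Arntl) bind E-boxes in DNA and switch on the Per, Cry and Nr1d genes and Dbp. The PER and CRY proteins then block CLOCK and BMAL1, and the NR1D proteins (REV-ERB alpha and beta) repress Arntl through sites called ROREs. DBP and TEF bind D-boxes and pass the rhythm to other genes, and NFIL3 represses through the same sites. In mouse lung the clock is known to run strongly in the airway epithelium and to shape inflammation, and it is known to act on Nrf2 itself.

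Letters that match known control sites of this kind can be read in the promoters of several of these genes. Such a match is one of sequence only, and whether a protein binds there or acts on the gene was not tested. RefSeq promoters of build GRCm38.p6 were matched for 9 of the 10 genes at 13 start sites, each 250 bases before and 50 after the start. They were searched on both strands for the E-box CACGTG, the related E-prime box CACGTT, which reads AACGTG on the opposite strand, the D-box TTATGTAA or TTACGTAA, the cAMP response element TGACGTCA and the RORE core TAGGTCA. The stretches before the start that hold a match are given 5′ to 3′ on the strand of the gene, with the match in capitals.
Per1 (chr11:69098763-69098808, plus strand): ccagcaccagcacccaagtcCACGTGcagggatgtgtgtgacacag
Per3 (chr4:151044796-151044890, minus strand): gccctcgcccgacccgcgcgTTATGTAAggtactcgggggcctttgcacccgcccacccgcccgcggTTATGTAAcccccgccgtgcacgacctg
Cry1 (chr10:85185089-85185153, minus strand): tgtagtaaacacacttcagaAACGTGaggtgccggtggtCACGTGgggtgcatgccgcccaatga
Cry2 (chr2:92434210-92434255, minus strand): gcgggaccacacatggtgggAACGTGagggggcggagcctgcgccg
Nr1d1 (chr11:98775380-98775425, minus strand): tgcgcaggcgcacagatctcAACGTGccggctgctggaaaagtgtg
Tef, first start (chr15:81802526-81802571, plus strand): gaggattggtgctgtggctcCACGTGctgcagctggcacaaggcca
Tef, second start (chr15:81811256-81811301, plus strand): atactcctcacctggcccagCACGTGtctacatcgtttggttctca

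An E-box thus lay in the windows of the first Per1 start, of Cry1 and of both Tef starts. The window of the second Per1 start held none of the letters searched. An E-prime box lay in that of Cry1, Cry2 and Nr1d1. The D-box stood at 2 places before the start of Per3, 205 and 158 bases upstream. No match overlapped another. Among all 32851 promoters of this length, 7.15% held the E-box, 4.68% the E-prime box, 1.06% a D-box, 1.79% the cAMP response element and 2.61% the RORE core. These shares are per promoter, and a gene with several start sites has several promoters. The windows of Clock, Nr1d2 and Dbp held none of these letters, which says only that they are not in those bases.

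Levels are given as a percent of the array's upper quartile, the 75th percentile of the processed signal of that array, so that 100% is the brightness of the spot at that percentile. Levels of different probes cannot be set against each other. The error beside a log2 difference is the scanner software's own and covers measurement only, not mice or pools. On the Nrf2-/- tumor, Nrf2+/+ tumor, Nrf2-/- non-tumor and Nrf2+/+ non-tumor arrays, 54.2%, 56.2%, 62.1% and 63.5% of spots were well above background. Slide 1 carried the Nrf2+/+ non-tumor array and slide 2 the other 3, so every difference taken against Nrf2+/+ non-tumor lung crosses slides, and the tumor difference in Nrf2-/- mice and the genotype difference in tumor stay on slide 2. Nfe2l2 itself had 1.19% in the tumor pool and 0.691% in the non-tumor pool of Nrf2-/- mice, not well above background on either, against 1350% in Nrf2+/+ tumor and 1040% in Nrf2+/+ non-tumor lung, which fits the genotype labels.

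Nrf2-/- tumors and Nrf2-/- non-tumor lung both carried more Dbp, Nr1d1 and Nr1d2 mRNA than their Nrf2+/+ counterparts. Dbp was higher by 3.31-fold in tumor and by 3.5-fold in non-tumor lung, Nr1d1 by 2.19-fold and 1.92-fold, and Nr1d2 by 1.58-fold and 1.76-fold. Arntl, which the NR1D proteins repress, was lower in Nrf2-/- pools of both tissues. In tumors, several of these genes were lower than in non-tumor lung, with Per3 and Tef low in both genotypes and Per1 low in Nrf2+/+ tumors. In RNA from whole tissue, fewer cells of a type and less RNA per cell cannot be told apart.

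**Figure D1:**
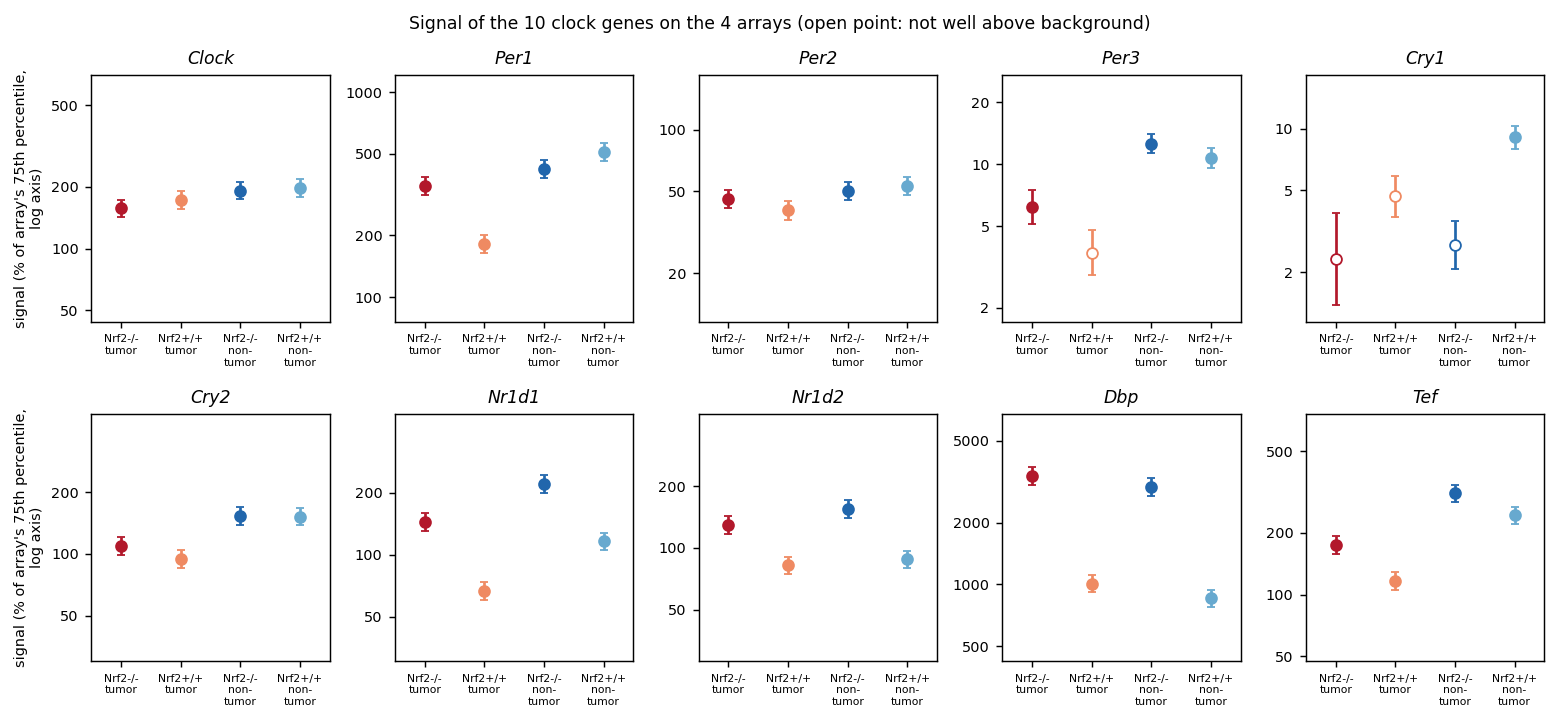
Signal of each of the 10 clock genes on the 4 arrays, as a percent of the array's 75th percentile on a log axis that spans the same ratio in every panel. Each point is 1 array of pooled RNA, bars are the scanner software's error of that array and open points are not well above background. Dbp, Nr1d1 and Nr1d2 are higher on both Nrf2-/- arrays than on both Nrf2+/+ arrays, and Per3 and Tef are lower on both tumor arrays than on both non-tumor arrays.

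Clock, the activator that gives the loop its name, differed little. It had 157% in Nrf2-/- tumor, 172% in Nrf2+/+ tumor, 192% in Nrf2-/- and 198% in Nrf2+/+ non-tumor lung. The 4 levels lay close together, with both tumor pools slightly below both non-tumor pools. The genotype difference on the log2 scale was -0.13 ± 0.20 in tumor and -0.05 ± 0.20 in non-tumor lung. The tumor difference was -0.29 ± 0.20 in Nrf2-/- and -0.20 ± 0.20 in Nrf2+/+ mice, close to the size of the measurement error. A second probe showed the same order of the 4 pools, from 27.9% in Nrf2-/- tumor to 44.4% in Nrf2+/+ non-tumor lung. Its tumor differences were larger, -0.44 ± 0.21 in Nrf2-/- and -0.54 ± 0.21 in Nrf2+/+ mice. The third probe was not well above background anywhere. Arntl, whose product pairs with CLOCK, had 75.6% in Nrf2-/- tumor and 115% in Nrf2+/+ tumor, and 95.1% in Nrf2-/- and 158% in Nrf2+/+ non-tumor lung. It was therefore lower in Nrf2-/- pools, with log2 differences of -0.60 ± 0.21 in tumor and -0.73 ± 0.20 in non-tumor lung. Npas2, which can stand in for Clock, was not well above background on any array.

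Among the repressors, Per1, which codes for a PER protein and is also switched on quickly by glucocorticoid hormone, had 347% in Nrf2-/- tumor and 181% in Nrf2+/+ tumor, and 421% in Nrf2-/- and 511% in Nrf2+/+ non-tumor lung. The Nrf2+/+ tumor pool stood alone at the low end, and the other 3 pools lay within a narrow range. In Nrf2+/+ mice Per1 was 2.82-fold lower in tumor (-1.49 ± 0.20 on the log2 scale), while in Nrf2-/- mice the tumor difference was -0.28 ± 0.20. The difference between these tumor differences was 1.22 ± 0.29. It cannot be told apart from a difference between slides, since the Nrf2+/+ non-tumor array alone was on slide 1. Per1 was the only 1 of the 10 genes with a difference of tumor differences of at least 2-fold, a share near the 10.8% of all genes. At 1.5-fold Cry1 also passed, against 24.3% of all genes, but its value of 0.73 ± 0.93 is smaller than its error and rests on 3 arrays where it was not well above background. Seen by genotype, Per1 was 1.92-fold higher in Nrf2-/- tumor (0.94 ± 0.20) and slightly lower in Nrf2-/- non-tumor lung (-0.28 ± 0.20). The gene has 1 probe, so a second reading is lacking.

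Per2, another PER gene, stayed within a small range: 45.8% in Nrf2-/- tumor, 40.4% in Nrf2+/+ tumor, 50.5% in Nrf2-/- and 53.3% in Nrf2+/+ non-tumor lung. Its 4 differences lay between -0.40 and 0.18, each with an error of 0.21. A dimmer second probe gave the same sign in 3 of the 4 comparisons, the exception being the Nrf2-/- tumor difference, at 0.38 ± 0.30 on that probe and -0.14 ± 0.21 on the first.

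Per3, the PER gene whose product is least needed for the rhythm in mice, was dim. Its level was 6.21% in Nrf2-/- tumor and 3.71% in Nrf2+/+ tumor (not well above background), and 12.6% in Nrf2-/- and 10.7% in Nrf2+/+ non-tumor lung. Both tumor pools were thus below both non-tumor pools. Per3 was 2.02-fold lower in the tumor pool of Nrf2-/- mice than in their non-tumor pool (-1.02 ± 0.32), and in Nrf2+/+ mice it was lower in the tumor pool by at least 2.58-fold. For such a bound, the signal on the brighter array was divided by the lowest signal that counted as well above background on the dimmer array, or by the gene's own signal there if larger. By genotype, Per3 was at least 1.49-fold higher in Nrf2-/- tumor and differed by 0.23 ± 0.23 in non-tumor lung. With normexp background correction, which compresses dim signals, the tumor differences shrank to -0.36 in Nrf2-/- and -0.37 in Nrf2+/+ mice.

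The cryptochromes, which with the PER proteins block CLOCK and BMAL1, behaved differently from each other. Cry1 was well above background in Nrf2+/+ non-tumor lung alone, at 9.05%, with 2.32% in Nrf2-/- tumor, 4.67% in Nrf2+/+ tumor and 2.71% in Nrf2-/- non-tumor lung. By genotype it was thus lower in non-tumor lung of Nrf2-/- mice by at least 3.26-fold, and by tissue it was lower in tumors of Nrf2+/+ mice by at least 1.94-fold, both across slides. Its other probe was not well above background on any array, and with normexp correction these 2 differences became -0.60 and -0.05 on the log2 scale. Cry2 was brighter, with 109% in Nrf2-/- tumor, 94.5% in Nrf2+/+ tumor, 153% in Nrf2-/- and 152% in Nrf2+/+ non-tumor lung. It was lower in both tumor pools, with differences of -0.48 ± 0.20 in Nrf2-/- and -0.69 ± 0.20 in Nrf2+/+ mice, and its genotype differences were near the error (0.21 ± 0.21 in tumor and 0.00 ± 0.20 in non-tumor lung). Its dimmer probe differed in non-tumor lung, where it was lower in Nrf2-/- mice (-0.71 ± 0.25).

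The nuclear receptors Nr1d1 and Nr1d2, which form the second loop of the clock and repress Arntl, were set apart by genotype. Nr1d1 had 145% in Nrf2-/- tumor against 66.4% in Nrf2+/+ tumor, and 222% in Nrf2-/- non-tumor lung against 116% in Nrf2+/+ non-tumor lung. It was higher in Nrf2-/- pools by 1.13 ± 0.21 in tumor and 0.94 ± 0.20 in non-tumor lung. Within each genotype it was lower in tumor, with differences of -0.61 ± 0.20 in Nrf2-/- and -0.80 ± 0.21 in Nrf2+/+ mice. A second probe repeated all 4 directions, with genotype differences of 1.08 ± 0.26 in tumor and 0.66 ± 0.21 in non-tumor lung. The third and dimmest probe, well above background in non-tumor lung alone, showed no such difference there (0.01 ± 0.25). Nr1d2 had 129% in Nrf2-/- tumor against 82.1% in Nrf2+/+ tumor, and 154% in Nrf2-/- non-tumor lung against 87.8% in Nrf2+/+ non-tumor lung. Both Nrf2-/- pools stood above both Nrf2+/+ pools, with genotype differences of 0.66 ± 0.20 in tumor and 0.81 ± 0.20 in non-tumor lung. The tumor differences of Nr1d2 were small, -0.25 ± 0.20 in Nrf2-/- and -0.10 ± 0.20 in Nrf2+/+ mice.

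Of the output factors, Dbp showed the largest genotype difference in each tissue among the 8 clock genes well above background on all 4 arrays. Dbp, a PAR-domain factor with a very strong daily rhythm in mouse tissues, had 3360% in Nrf2-/- tumor against 1010% in Nrf2+/+ tumor, and 2990% in Nrf2-/- non-tumor lung against 854% in Nrf2+/+ non-tumor lung. The pools fell into a high Nrf2-/- pair and a low Nrf2+/+ pair, and tissue made little difference. The genotype difference was 1.73 ± 0.20 in tumor, within 1 slide, and 1.81 ± 0.20 in non-tumor lung, across slides. The tumor difference was 0.17 ± 0.20 in Nrf2-/- and 0.25 ± 0.20 in Nrf2+/+ mice. Ranked by the smaller of the 2 signed genotype differences, Dbp stood at place 26 of 16287 genes well above background on all 4 arrays. Nr1d1 stood at 136, Nr1d2 at 334 and Tef at 950. The rest stood much lower, Cry2 at 4899, Per2 at 7005, Clock at 8549 and Per1 at 11814. The first places go to genes higher in Nrf2-/- pools of both tissues. Dbp has 1 probe.

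Tef, which belongs to the same factor family as Dbp, instead differed mainly by tissue. It had 174% in Nrf2-/- tumor and 116% in Nrf2+/+ tumor, and 311% in Nrf2-/- and 243% in Nrf2+/+ non-tumor lung. Both tumor pools lay below both non-tumor pools, with tumor differences of -0.84 ± 0.20 in Nrf2-/- and -1.08 ± 0.20 in Nrf2+/+ mice. Its genotype differences were 0.59 ± 0.20 in tumor and 0.36 ± 0.20 in non-tumor lung. A dimmer probe gave -0.75 ± 0.24 and -1.46 ± 0.26 for the same tumor differences, 0.71 ± 0.28 for genotype in tumor and -0.01 ± 0.21 for genotype in non-tumor lung. Hlf, the remaining member of that factor family, followed Tef in tissue, with 23.1% in Nrf2-/- tumor and 19.0% in Nrf2+/+ tumor, and 72.4% in Nrf2-/- and 59.2% in Nrf2+/+ non-tumor lung. Its tumor differences were -1.65 ± 0.22 in Nrf2-/- and -1.64 ± 0.22 in Nrf2+/+ mice.

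**Figure D2:**
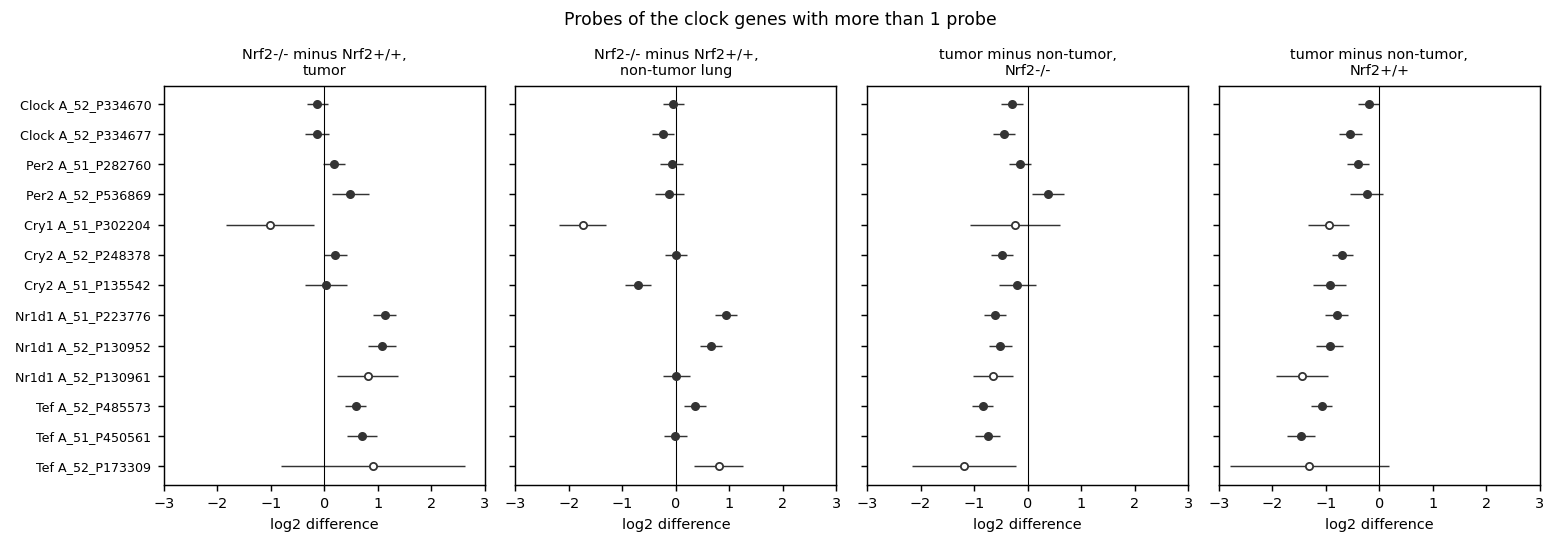
The log2 difference of each probe of the clock genes with more than 1 probe, for the 4 comparisons, with the scanner software's error as bars. Probes that were not well above background on any array are left out, and open points were not well above background on 1 or both of the arrays compared. The 2 brighter probes of Nr1d1 are higher in Nrf2-/- pools of both tissues, and the third probe lies at 0.01 in non-tumor lung.

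Counted over the 10 genes, the genotype comparison in tumors, where 9 of the 10 were measured (well above background on 1 array or both), gave 2 genes at least 2-fold higher in Nrf2-/- mice (Nr1d1 and Dbp), against 4.29% of all genes measured, and 0 lower, against 3.67%. At 1.5-fold there were 6 higher by their signals (Per1, Per3, Nr1d1, Nr1d2, Dbp and Tef), against 9.21%, and 0 lower, against 7.94%. Per3 is shown to be higher only by at least 1.49-fold, so with dim genes held to their bounds there were 5 higher, against 8.87%. In non-tumor lung, where all 10 were measured, 1 was at least 2-fold higher in Nrf2-/- mice (Dbp), against 3.04%, and 1 at least 2-fold lower (Cry1), against 4.61%. At 1.5-fold there were 3 higher (Nr1d1, Nr1d2 and Dbp), against 7.01%, and 1 lower (Cry1), against 10.2%. Cry1 entered these counts only through the Nrf2+/+ non-tumor array, where it was brightest. The median genotype difference was 0.66 over the 9 genes in tumor and 0.12 over the 10 genes in non-tumor lung, beside -0.03 and 0.02 over all genes.

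Taking both tissues, Nrf2-/- was at least 1.5-fold higher in each for 3 of the 8 clock genes well above background on all 4 arrays (Nr1d1, Nr1d2 and Dbp), against 2.52% of the 16287 such genes, and at least 1.5-fold lower in each for 0, against 1.74%. This rule of both pairs was chosen after the values were seen. Of 15 other clock genes on all 4 arrays, Bhlhe40 was higher in Nrf2-/- pools of both tissues, and Arntl and Noct were lower. Bhlhe40, an E-box repressor, had 351% in Nrf2-/- tumor against 199% in Nrf2+/+ tumor, and 134% in Nrf2-/- against 81.6% in Nrf2+/+ non-tumor lung. Noct, a rhythmic enzyme gene also known as nocturnin, had 179% in Nrf2-/- tumor against 301% in Nrf2+/+ tumor, and 86.0% in Nrf2-/- against 171% in Nrf2+/+ non-tumor lung. Nfil3, the D-box repressor, was named after its values were seen and was lower in Nrf2-/- pools, with differences of -0.52 ± 0.20 in tumor and -0.67 ± 0.20 in non-tumor lung. In mouse tissues Arntl and Nfil3 are known to peak at a time of day roughly opposite to Nr1d1 and Dbp. Here the first pair was lower and the second pair higher in the Nrf2-/- pools of both tissues. These pairs were formed after the values were seen. Other clock genes differed less by genotype, such as Per2, at 0.18 in tumor and -0.08 in non-tumor lung, and Hlf, at 0.28 and 0.29. What part the hour of collection has in these values was not tested.

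**Figure D3:**
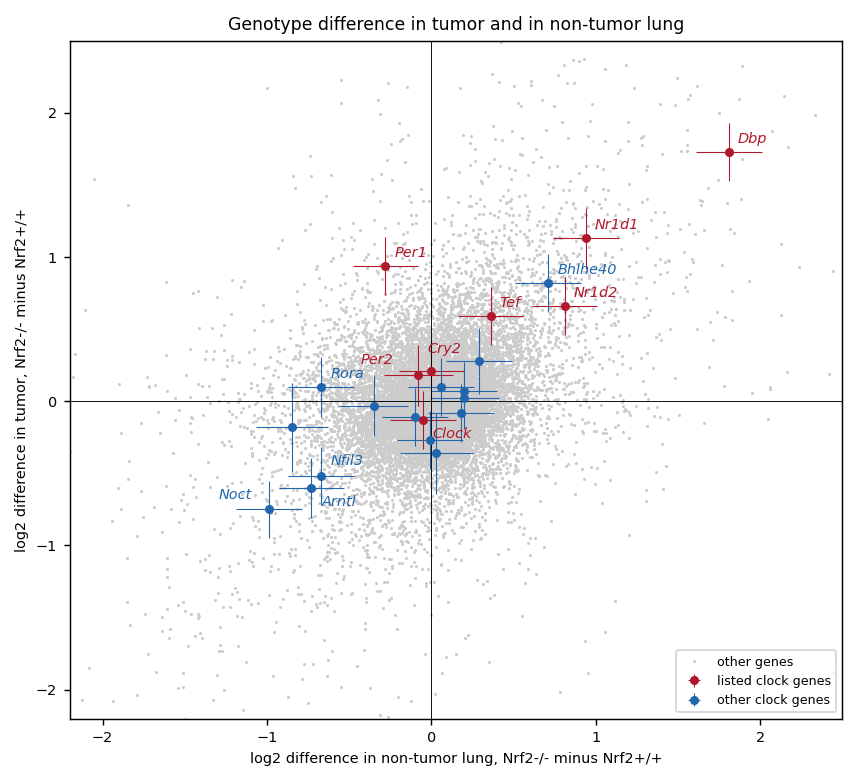
Genotype difference (log2, Nrf2-/- minus Nrf2+/+) in tumor against that in non-tumor lung for genes well above background on all 4 arrays, with the scanner software's error as bars. The 2 axes share no array, and grey points beyond the drawn range are not shown. Dbp lies at 1.73 in tumor and 1.81 in non-tumor lung, Nr1d1 and Nr1d2 are positive in both tissues, Arntl and Noct are negative in both, and Per1 lies at 0.94 in tumor and -0.28 in non-tumor lung.

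Between tumor and non-tumor lung, 8 of 9 clock genes had a difference below 0 in Nrf2-/- mice, against 53.0% of all genes, and 9 of 10 in Nrf2+/+ mice, against 52.1%. In Nrf2-/- mice 1 of 9 was at least 2-fold lower in tumor (Per3), a share near the 9.12% of all genes, and 0 were higher, against 5.43%. At 1.5-fold 3 were lower (Per3, Nr1d1 and Tef), against 17.4%, and 0 higher, against 11.0%. In Nrf2+/+ mice 3 of the 10 genes were at least 2-fold lower (Per1, Per3 and Tef), against 15.3%, and 0 were higher, against 8.08%. At 1.5-fold 6 were lower (with Cry1, Cry2 and Nr1d1), against 25.2%, and 0 higher, against 16.8%. Cry1 was measured there only through the non-tumor array, where it was brightest. The median tumor difference was -0.29 over the 9 genes in Nrf2-/- mice and -0.75 over the 10 genes in Nrf2+/+ mice, beside -0.03 over all genes in each. Dbp was the exception in both genotypes, with tumor differences close to the measurement error that in Nrf2-/- mice turned to -0.06 with quantile normalization and -0.11 with spike-in scaling. Per2 turned to 0.12 in Nrf2-/- mice with the mean of all probes, and in Nrf2+/+ mice Clock and Nr1d2 turned to 0.09 and 0.19 with median scaling. The Nrf2-/- and Nrf2+/+ tumor comparisons share no array.

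In both genotypes, Nr1d1 and Tef were at least 1.5-fold lower in tumor, which is 2 of 8 genes against 10.5% of all genes on 4 arrays, and 0 of 8 were higher in both, against 8.58%. Of the other clock genes, Hlf was lower in tumor in both genotypes, and Bhlhe40, Nfil3 and Noct were higher. Bhlhe40 was higher in tumor by 1.39 ± 0.20 in Nrf2-/- and 1.28 ± 0.20 in Nrf2+/+ mice, and Noct by 1.06 ± 0.20 and 0.82 ± 0.20. Rora, which codes for an activator at ROREs, was lower in tumor, at -0.51 ± 0.20 in Nrf2-/- and -1.28 ± 0.20 in Nrf2+/+ mice. Ciart, an E-box repressor, was not well above background in either tumor pool and had only 4.04% and 3.92% in Nrf2-/- and Nrf2+/+ non-tumor lung, so no fold can be given.

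**Figure D4:**
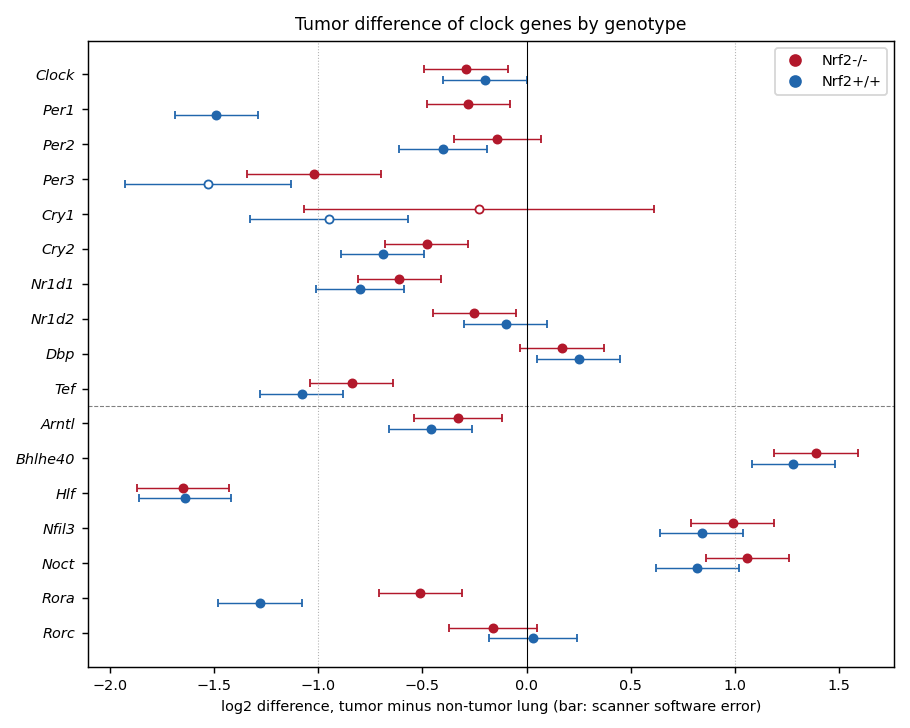
Tumor difference (log2, tumor minus non-tumor lung) of the 10 clock genes and, under the dashed line, 7 other clock genes, in Nrf2-/- mice (red) and Nrf2+/+ mice (blue), with the scanner software's error as bars. Open points were not well above background on 1 or both arrays, and dotted lines mark 2-fold. Per1 and Rora differ most between the genotypes, Tef and Hlf are low in both, and Bhlhe40, Nfil3 and Noct are high in both.

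The whole list of 21 other clock genes, with 17 measured in each tumor comparison and in non-tumor lung and 15 in tumor by genotype, is summarised by its medians. They were -0.30 for the tumor difference in Nrf2-/- mice and -0.20 in Nrf2+/+ mice, -0.08 for genotype in tumor and 0.03 for genotype in non-tumor lung, beside -0.03, -0.03, -0.03 and 0.02 over all genes. At 2-fold, with Ciart left out, 2 were higher and 1 lower in Nrf2-/- tumor, 1 was higher and 3 lower in Nrf2+/+ tumor, and 0 passed the mark in either genotype comparison. With dim genes held to their bounds, 5.38% of all genes were higher and 5.82% lower in Nrf2-/- tumor, and 7.83% and 11.2% in Nrf2+/+ tumor. By genotype these shares were 3.73% and 2.57% in tumor, and 2.38% and 3.48% in non-tumor lung. Of 13 rhythmic output genes of many mouse tissues, 10 were measured in each comparison. Among them Usp2, a ubiquitin protease gene with a strong rhythm, was higher by 1.09 in Nrf2-/- than in Nrf2+/+ tumor and hardly differed by genotype in non-tumor lung, with 23.8% in Nrf2-/- and 23.9% in Nrf2+/+ mice. It was the only 1 of these 10 past 2-fold by genotype, where 4.29% of all genes were higher in tumor. In Nrf2+/+ tumors Usp2 (-1.96) and Tsc22d3 (-1.61), a gene that glucocorticoids switch on, were at least 2-fold lower, as were 15.3% of all genes.

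Other things moved with the tumor values. Of 12 glucocorticoid-responsive genes, 11 were measured and include Per1. In Nrf2-/- tumors 1 of them was at least 2-fold lower (Dusp1), a share near the 9.12% of all genes, and 0 higher, against 5.43%. In Nrf2+/+ tumors 5 were lower (Tsc22d3, Klf9, Pdk4, Dusp1 and Per1), against 15.3%, and 2 higher (Mt1 and Mt2), against 8.08%. The median was -0.27 in Nrf2-/- and -0.98 in Nrf2+/+ tumors. Pdk4 (-0.42 in Nrf2-/- and -2.19 in Nrf2+/+ mice) thus stood beside Per1 as low in Nrf2+/+ tumors. Of 6 endothelial markers, 4 were at least 2-fold lower in Nrf2-/- tumors and 5 in Nrf2+/+ tumors, against 9.12% and 15.3% of all genes. Their summed level was 7990% in Nrf2-/- tumor and 5910% in Nrf2+/+ tumor, against 15800% in Nrf2-/- and 12700% in Nrf2+/+ non-tumor lung. This endothelial sum follows its brightest probe, Vwf, with 6100%, 4250%, 12000% and 7990% in the same order. The median tumor difference of the endothelial markers was -1.1 in Nrf2-/- and -1.42 in Nrf2+/+ mice. Their median genotype difference in non-tumor lung was -0.23, opposite in direction to the sum. All 4 ciliated-cell markers and 4 of 4 smooth muscle markers were at least 2-fold lower in Nrf2-/- tumors. In Nrf2+/+ tumors they were 4 of 4 and 2 of 4, beside the same shares of all genes. The summed smooth muscle level was 2790% in Nrf2-/- tumor and 4790% in Nrf2+/+ tumor, against 8290% in Nrf2-/- and 8700% in Nrf2+/+ non-tumor lung. The summed ciliated level was 869%, 921%, 2980% and 3450% in the same order, a sum that follows its brightest probe, Tppp3, with 717% in Nrf2-/- tumor and 627% in Nrf2+/+ tumor. Such sums do not show the dimmer markers: the median tumor difference of the ciliated markers was -3.08 in Nrf2-/- and -2.22 in Nrf2+/+ mice. Alveolar type 2 markers, the surfactant-producing epithelium, summed to 109000% in Nrf2-/- tumor and 103000% in Nrf2+/+ tumor, against 69800% in Nrf2-/- and 61300% in Nrf2+/+ non-tumor lung. In the other 9 cell type lists the median tumor difference, first in Nrf2-/- and then in Nrf2+/+ mice, was -0.41 and -0.98 for alveolar type 1, -1.86 and -0.95 for club, -0.64 and -0.47 for fibroblast, and -1.23 and -1.66 for cardiac muscle markers. It was 0.58 and 0.11 for macrophage, -0.29 and -0.80 for T and NK, -0.27 and -1.20 for B and plasma, -0.55 and -0.80 for neutrophil, and -1.13 and -0.84 for erythroid markers. Every one of the 13 lists had at least 1 marker well above background on some array. The part of cell makeup and of glucocorticoid-responsive genes in the lower clock values was not tested.

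The genotype values in non-tumor lung stood beside small marker differences: of the 13 cell type lists, 12 had no member at least 2-fold apart and 1 had a single such member, the cardiac gene Nppa, which was lower in Nrf2-/- mice. In tumors, by genotype, ciliated (Foxj1 and Dnah5, 2 of 4, list median -1.09), club (1 of 2) and smooth muscle (1 of 4) markers were lower in Nrf2-/- mice, and Pdpn, Marco and Nppa, of the alveolar type 1, macrophage and cardiac lists, were higher. Of the 11 glucocorticoid-responsive genes, 1 passed 2-fold by genotype in each tissue, Pdk4 in tumor (1.20 ± 0.21) and Mt2 in non-tumor lung (1.36 ± 0.20), both higher in Nrf2-/- mice, and Tsc22d3 was at -0.88 ± 0.20 in non-tumor lung. Of 12 immediate early and 11 temperature-responsive genes measured, 0 passed 2-fold by genotype in either tissue, where 4.29% of all genes were higher and 3.67% lower in tumor, and 3.04% higher and 4.61% lower in non-tumor lung. Between tissues the immediate early genes went both ways: 3 were at least 2-fold higher (Egr1, Egr2 and Junb) and 1 lower (Dusp1) in Nrf2-/- tumors. In Nrf2+/+ tumors 2 were higher (Egr1 and Junb) and 2 lower (Dusp1 and Klf4). Over all genes, 5.43% were higher and 9.12% lower in Nrf2-/- tumors, and 8.08% and 15.3% in Nrf2+/+ tumors. No temperature-responsive gene passed 2-fold between tissues, and their median tumor differences were 0.16 in Nrf2-/- and -0.08 in Nrf2+/+ mice.

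The single fit that leaves a degree of freedom, an additive limma model of tissue plus genotype over 20553 genes, called 0 genes for tissue and 0 for genotype at an adjusted p of 0.05, that is 0.0% for each, and so 0 of the 10 clock genes. Its smallest adjusted p in limma was 0.0707 for tissue and 0.168 for genotype. Without adjustment, limma put 29.7% of all genes under 0.05 for tissue, among them Per3, Cry2, Nr1d1 and Tef. For genotype, limma without adjustment put 9.29% of all genes under 0.05, among them Cry1, Nr1d1, Nr1d2 and Dbp. Cry1 entered the fit only through the Nrf2+/+ non-tumor array, where it was brightest, and was not well above background in either tumor pool. For Dbp the fitted genotype difference was 1.77, higher in Nrf2-/- in 2 of 2 tissues, with a limma adjusted p of 0.273. Over 8 settings of scaling, background and gene filter, that adjusted p in limma lay between 0.0205 and 0.287. For Tef the fitted tumor difference was -0.96, lower in 2 of 2 genotypes, with a limma adjusted p of 0.0851 and a range of 0.0137 to 0.0966. The fit treats a tumor difference that depends on genotype as noise, and for Per1 it gave an adjusted p in limma of 0.231 for tissue and 0.837 for genotype. With the slide in the fit no degree of freedom is left, and the coefficients become the within-slide values, -0.28 for tissue and 0.94 for genotype in the case of Per1, where without the slide they were -0.89 and 0.33.

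The genes whose pattern over the 4 arrays was most like that of Dbp were found by the Euclidean distance between centred log2 profiles, over 3189 genes with a range of at least 2-fold. They were Lgi2 (distance 0.25), Ccl7 (0.26), Fam199x (0.27), Cfb (0.28) and Ccl2 (0.29). Ccl7 and Ccl2 are chemokines that draw monocytes, and Cfb is complement factor B. Ccl2 had 158% in Nrf2-/- tumor against 60.8% in Nrf2+/+ tumor, and 143% in Nrf2-/- against 41.1% in Nrf2+/+ non-tumor lung. None of these 5 genes is in the lists of clock or rhythmic genes used here, and 4 arrays give little power to tell patterns apart.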

How the data were processed

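RNA pooled over 8 mice per group was labelled with Cy3 (500 ng each) and hybridised to 1 Agilent array per group (design 014868), per the labels' protocols. The authors deposited the intensity of each spot, unlogged. Agilent's Feature Extraction software had subtracted the background and detrended this signal, and probes were annotated on mm9, per the file headers. The submitters' value table equals the scanner's processed signal within 0.497%. Normalization between arrays is not given in the sources used here for this table or the scanner files.

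The processed signal was divided by its 75th percentile over the 43379 non-control spots of the same array and put on the log2 scale. Outlier spots were dropped, spots of a probe averaged, and 4 of 41174 probes dropped for non-uniform spots. The files used here pair probes with accessions and hold no gene name column, so genes were named through a RefSeq table (GRCm38.p6). A symbol was found for 26683 of 41170 probes. The probe with the highest mean over the arrays stands for its gene. Differences were counted at 2-fold, or 1.5-fold, for genes that either of the compared arrays showed well above background. The normexp alternative (offset 50) used the median spot signal, since no mean signal column was present. The fit used limma 3.58.1 in R 4.3.3 (prior degrees of freedom 2.18) with Benjamini-Hochberg adjustment over 20553 genes. Its code was run on simulated levels with the same noise for every gene and large tissue differences. That run does not show how the fit performs on these arrays. Other steps used Python 3.11.15, numpy 2.4.6, pandas 2.3.3 and matplotlib 3.10.9. The number of arrays limits the precision.

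The members, gene lists, tests and alternatives were chosen with earlier results of these data known. Named genes are all 10 members, members of the lists past 2-fold in at least 1 comparison (1 of them is not reported here), Arntl, Npas2, the 5 genes most like Dbp, and Nfe2l2. The 18 comparison lists covered other clock genes, rhythmic output, glucocorticoid-responsive, temperature-responsive and immediate early genes, and markers of 13 cell types.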

Additional observations from a re-analysis of the deposited data

Results flagged for a closer look

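Per1 was flagged because its genotype difference had opposite signs in the 2 tissues, each beyond the scanner software's error of 0.20: 0.94 in tumor and -0.28 in non-tumor lung on the log2 scale (Nrf2-/- minus Nrf2+/+). The difference between the tissues was not tested, since each pool was read on 1 array. The tumor value lies within a slide and the non-tumor value across slides, so tissue and slide cannot be told apart here. Over 8 settings the first value lay between 0.84 and 0.94 and the second between -0.35 and -0.14.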

How the results depend on the processing

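Of 416 single values of the 10 genes under the alternatives, 369 stayed within the software's error or on the same side of the test, 39 moved beyond it, 8 passed limma's threshold and 0 that had been past 2-fold changed sign. The genotype difference of Dbp lay between 1.63 and 1.73 in tumor and 1.78 and 1.95 in non-tumor lung. Counts were less stable: 25 of 83 moved by over 1.5 times, none of them with dim genes held to their bounds, an alternative chosen after the data were seen. Genes past 2-fold numbered 2827 for the tumor comparison in Nrf2-/- mice, 4660 for that in Nrf2+/+ mice, 1419 for genotype in tumor and 1545 for genotype in non-tumor lung. With normexp correction, which compresses dim signals, they numbered 1253, 2289, 587 and 455, and with genes on all 4 arrays 1583, 2924, 740 and 546. Clock genes past 2-fold in Nrf2-/- tumors, against 1, numbered 0 with median scaling, quantile normalization, normexp and genes on all 4 arrays, and 2 with spike-in scaling. In Nrf2+/+ tumors they numbered 5 with spike-in scaling, against 3. By genotype in tumor there was 1 with normexp, against 2, and in non-tumor lung 1 with the mean of all probes and with genes on all 4 arrays, against 2. At 1.5-fold there were 3, 6, 6 and 4 in the same 4 comparisons, and 2 for the difference of tumor differences. The additive limma fit called 2 clock genes with spike-in scaling (Per3 and Tef for tissue, where 14.0% of all genes were called), 3 with normexp (Nr1d1 and Tef for tissue, 15.2%, and Dbp for genotype, 0.253%) and 3 with genes on all 4 arrays (Nr1d1 and Tef, 23.7%, and Dbp, 0.921%), against 0; the cause was not tested. Scaling moved the share of higher among all genes past 2-fold. It was 37.3% in Nrf2-/- tumors (48.1% with median and 21.3% with spike-in scaling), 34.5% in Nrf2+/+ tumors (55.1% and 23.5%) and 39.7% for genotype in non-tumor lung (51.6% with median scaling). Median scaling moved all tumor differences by 0.137 in Nrf2-/- and 0.293 in Nrf2+/+ mice and the non-tumor genotype difference by 0.143, and spike-in scaling moved the tumor differences by -0.279 and -0.204. Under median scaling the small tumor differences of Clock (0.09) and Nr1d2 (0.19) in Nrf2+/+ mice turned positive. No paired analysis was possible because each group has 1 array and the array numbers in the labels are shared by no 2 groups. Per3 and Cry1, dim on these arrays, are the genes whose values depend most on the signal over background.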
